A study of Homo sapiens with 5 samples.

Results

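Expression of 10 immediate early and MAPK feedback genes (EGR1, FOS, JUN, JUNB, FOSL1, KLF6, IER2, IER3, DUSP1 and DUSP6) was followed in mouse xenografts of HT-29, a line of human colon cancer cells, on 4 foods. The 10 were picked by name from the 26364 gene symbols listed, of which 10005 had enough counts to be analysed, the 10 among them. They were picked with their levels in these same libraries already seen, so those levels are given as a description. Models were fitted to all genes at once, and nothing about the 10 is read from whether a model called them. The diets were food that lacked methionine as well as tryptophan and niacin (1 library, the combined omission), food that lacked tryptophan and niacin (1 library), food that lacked methionine (2 libraries) and normal food (1 library). All tumours came from cells implanted under the skin of female NOD SCID mice, aged 5 weeks and without T or B cells, that ate their food for 2 weeks within an experiment of 3 weeks. HT-29 is a single established line and carries an activating BRAF mutation. The labels leave unsaid whether both methionine-free tumours grew in different mice, and whether tumours were pooled.

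Immediate early genes are transcribed within minutes when a growth factor or a stress activates a MAP kinase cascade, without new protein synthesis, and their transcripts are short-lived. Many of them encode transcription factors: EGR1 is a zinc finger factor, and FOS, FOSL1, JUN and JUNB are subunits that pair to form AP-1. DUSP1 and DUSP6 encode phosphatases that remove the activating phosphates from MAP kinases and so close a feedback loop. In intestinal epithelium the cascade runs from EGF receptor family members through RAS and RAF to ERK and promotes proliferation.

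The stretches upstream of 4 of these genes are shown because the upstream regions carry the classical sites through which kinase cascades act on them. They are the 250 bases before the gene start in RefSeq (GRCh38.p14), read 5′ to 3′ on the gene's strand, and capitals mark every match, on either strand, to the motifs named below.
EGR1 promoter, chr5:138465229-138465478, plus strand: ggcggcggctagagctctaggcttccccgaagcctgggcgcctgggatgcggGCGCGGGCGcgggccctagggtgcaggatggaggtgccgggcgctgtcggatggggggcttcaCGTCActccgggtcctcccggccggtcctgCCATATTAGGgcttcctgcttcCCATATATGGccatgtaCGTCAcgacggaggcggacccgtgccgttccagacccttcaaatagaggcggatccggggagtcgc
FOS promoter, chr14:75278578-75278827, plus strand: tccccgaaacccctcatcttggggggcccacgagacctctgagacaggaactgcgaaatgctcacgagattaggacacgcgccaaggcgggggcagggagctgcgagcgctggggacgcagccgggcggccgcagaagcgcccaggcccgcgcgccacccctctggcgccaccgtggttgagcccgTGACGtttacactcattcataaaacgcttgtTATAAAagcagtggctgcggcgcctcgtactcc
JUN promoter, chr1:58784048-58784297, minus strand: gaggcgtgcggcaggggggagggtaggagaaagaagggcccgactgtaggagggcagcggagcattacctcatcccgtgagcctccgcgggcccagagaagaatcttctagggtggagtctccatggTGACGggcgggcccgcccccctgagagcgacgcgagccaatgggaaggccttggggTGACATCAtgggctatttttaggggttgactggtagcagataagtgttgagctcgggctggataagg
DUSP1 promoter, chr5:172771196-172771445, minus strand: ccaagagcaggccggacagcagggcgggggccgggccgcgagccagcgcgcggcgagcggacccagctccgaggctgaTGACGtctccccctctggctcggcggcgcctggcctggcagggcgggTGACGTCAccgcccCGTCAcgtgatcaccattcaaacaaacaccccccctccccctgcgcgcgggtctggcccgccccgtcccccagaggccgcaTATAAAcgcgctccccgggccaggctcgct

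RefSeq promoters were matched by symbol for 8 of the 10 genes and are compared with 35116 promoters of the same length. The motifs were chosen with these sequences known. Only the 250 bases before the start were searched, so a gene without a match may still hold the site further away. A CArG box, the 10-base site of serum response factor, was found in 1 of 8 members, EGR1, which holds 2 of them at 105 to 96 and at 83 to 74 bases before the start, against 1.16% of all promoters. The short cAMP response element core TGACG stood in 6 of 8 members and in 21.2% of all promoters. Its full palindrome TGACGTCA, which contains the core once on each strand, stood in 1 of 8, DUSP1, and in 1.65% of all. The variant TGACATCA, known from JUN as a site for JUN with ATF2, was present in JUN and KLF6 (2 of 8) and in 2.37% of all. The EGR site GCGNGGGCG was present in EGR1 and KLF6 (2 of 8) and in 8.41% of all, and TATAAA in FOS, JUNB and DUSP1 (3 of 8) and in 10.7% of all. TGANTCA, the AP-1 site, matched in 0 of 8 windows, against 6.57% of all promoters, and DUSP6 held none of these letters.

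**Figure D1:**
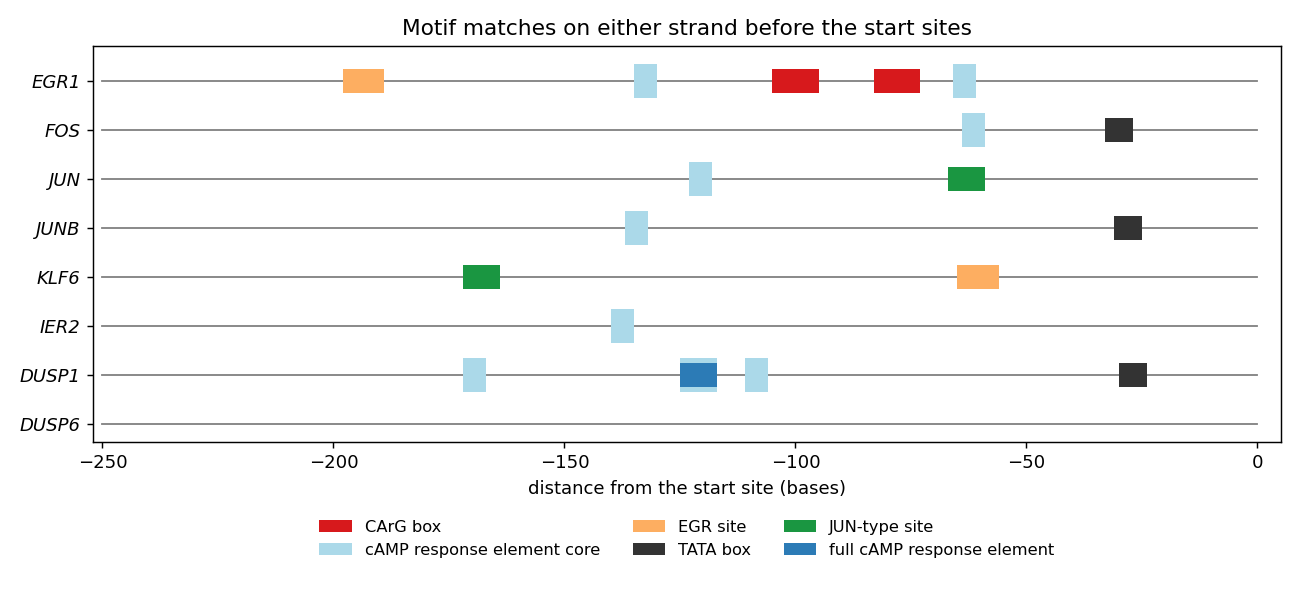
Motif matches in the 250 bases before the gene start of 8 members, 1 gene per line, with distance from the start in bases on the x axis and motifs by colour. EGR1 carries both CArG boxes within 105 bases of the start, FOS, JUNB and DUSP1 carry TATAAA close to the start, and DUSP6 has no match.

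The libraries were shallow, with 433807 to 1087985 counts each and 13750 to 15200 genes above 0. A single count was worth 0.919 to 2.31 CPM (counts scaled to the library total), the unit of level used here, and 3 counts, the floor of detection, to 2.76 to 6.92 CPM. All 10 markers of colon epithelium had counts in every library, with a summed level of 12810 to 14690 CPM. Markers of other cells summed to 16.1 to 21.2 CPM for fibroblasts, mostly COL1A1 with 7 to 11 counts, and to at most 3.26 CPM for vessels. The leukocyte list summed to 2054 to 3444 CPM, nearly all of it LYZ, a lysozyme that intestinal epithelium also makes, with CD68 at 14 to 61 counts. COL1A2, PDGFRA, PTPRC and CDH5, defining markers of these cells, were at 0 in all 5. The host's own cells are mouse cells, so human symbols at 0 do not show how much stroma, vessel or blood the tumours held. Methionine-free replicate 2 stood apart: of 4 equal groups by transcript length, the shortest had a median log2 difference of 0.50 from normal food in it and the longest one of −0.44, against 0.14 and −0.09 in replicate 1. Normal food and the combined omission carry titles of a shorter style than the other 3 libraries. The labels do not say whether these styles mark a difference in handling. If they do, diet and handling cannot be told apart across them.

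EGR1 was highest in the tumour on tryptophan/niacin-free food. It had 34.6 CPM (15 counts) in the combined omission, 122 CPM (75 counts) in the tryptophan/niacin-free library, 50.6 and 41.3 CPM (28 counts each) in the methionine-free libraries and 31.3 CPM (34 counts) on normal food. The exact Poisson interval of the tryptophan/niacin-free level, 96.2 to 153 CPM, lay clear of those of the other 4 libraries, which overlapped each other and ended at or below 73.1 CPM. On a log2 scale with TMM scaling and a prior count of 2, the tryptophan/niacin-free library stood 1.83 above normal food, a count ratio of 3.81 (95% exact interval 2.51 to 5.89). The combined omission stood 1.70 below the tryptophan/niacin-free library, 3.46-fold lower with an interval of 1.97 to 6.48. In bulk tumours fewer cells of a type and less RNA per cell cannot be told apart. Markers of skeletal muscle were also highest there: 5 of 8 had counts and they summed to 76.6 CPM in the tryptophan/niacin-free library, against 1 to 3 of 8 and 1.81 to 26.7 CPM in the other libraries. In the tryptophan/niacin-free library MYH1, MYH2 and MYH4, the fast myosin heavy chains, had 14, 15 and 12 counts, and the defining markers CKM, TNNT3 and MYLPF were at 0. Mouse reads could have been counted, and whether these counts came from muscle of the host was not tested. The part of muscle in the levels of EGR1 and the other members was not tested either.

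FOSL1, the FOS relative also called FRA1 whose protein is stabilised by ERK, was lowest on normal food. It had 50.7 CPM (22 counts) in the combined omission, 71.7 CPM (44 counts) in the tryptophan/niacin-free library, 28.9 and 38.3 CPM (16 and 26 counts) in the methionine-free libraries and 23.0 CPM (25 counts) on normal food. All 4 omission libraries thus lay above normal food, and both libraries without tryptophan and niacin lay above both methionine-free libraries, though counting intervals of neighbouring levels overlapped. The tryptophan/niacin-free library was 3.04-fold above normal food (interval 1.82 to 5.18), and the count ratio of the combined omission to normal food had an interval of 1.18 to 4.06.

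FOS, the partner of JUN in classical AP-1, was highest on normal food. Its level was 83.0 CPM (36 counts) in the combined omission, 55.4 CPM (34 counts) in the tryptophan/niacin-free library, 70.5 and 41.3 CPM (39 and 28 counts) in the methionine-free libraries and 109 CPM (119 counts) on normal food. The interval on normal food, 90.6 to 131 CPM, overlapped those of the combined omission (58.1 to 115 CPM) and of methionine-free replicate 1 (50.1 to 96.3 CPM) but neither of the other 2. The tryptophan/niacin-free library was 2.03-fold below normal food (1.38 to 3.07) and the methionine-free mean was 55.9 ± 20.7 CPM (SD, n = 2).

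JUN ordered the libraries almost as FOS did. It had 203 CPM (88 counts) in the combined omission, 143 CPM (88 counts) in the tryptophan/niacin-free library, 134 and 79.6 CPM (74 and 54 counts) in the methionine-free libraries and 262 CPM (285 counts) on normal food. The interval on normal food was 232 to 294 CPM and met only that of the combined omission, 163 to 250 CPM. Methionine-free replicate 2 was the lowest library for both genes, and its interval of 59.8 to 104 CPM for JUN lay below those of all the others. The tryptophan/niacin-free library was 1.88-fold below normal food (1.47 to 2.41), and the ratio by which the combined omission lay below it had an interval of 1.02 to 1.67.

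KLF6, a zinc finger factor of the Krüppel-like family, was near its normal level in the combined omission and lower in the methionine-free tumours. It had 265 CPM (115 counts) in the combined omission, 214 CPM (131 counts) in the tryptophan/niacin-free library, 159 and 137 CPM (88 and 93 counts) in the methionine-free libraries and 274 CPM (298 counts) on normal food. The methionine-free mean of 148 ± 15.5 CPM (SD, n = 2) lay below the other 3 libraries. The counting interval of normal food, 244 to 307 CPM, overlapped those of the combined omission and the tryptophan/niacin-free library and neither of the methionine-free ones. As a count ratio, the tryptophan/niacin-free library was 1.32-fold below normal food, with an interval of 1.07 to 1.63 that excludes no difference.

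JUNB, a JUN relative and weaker activator that can oppose JUN, did not follow JUN. Its level was 85.3 CPM (37 counts) in the combined omission, 153 CPM (94 counts) in the tryptophan/niacin-free library, 107 and 142 CPM (59 and 96 counts) in the methionine-free libraries and 94.7 CPM (103 counts) on normal food. The 2 highest libraries were tryptophan/niacin-free food and methionine-free replicate 2. Both methionine-free libraries had intervals that overlapped those of every other library. The tryptophan/niacin-free interval was clear of those of the combined omission and of normal food, which overlapped each other. The tryptophan/niacin-free library was 1.57-fold above normal food (the interval began at 1.18), and the combined omission was 1.76-fold below the tryptophan/niacin-free library (1.19 to 2.64).

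DUSP1, the nuclear phosphatase that acts on p38 and JNK as well as ERK, had few counts and was highest on normal food. It had 16.1 CPM (7 counts) in the combined omission, 11.4 CPM (7 counts) in the tryptophan/niacin-free library, 19.9 and 19.2 CPM (11 and 13 counts) in the methionine-free libraries and 34.9 CPM (38 counts) on normal food. All 4 omission libraries lay below normal food, but only the tryptophan/niacin-free interval, 4.59 to 23.5 CPM, was clear of the interval on normal food, 24.7 to 47.9 CPM. The tryptophan/niacin-free library was 3.15-fold below normal food (1.39 to 8.35) and the combined omission 2.18-fold, with an interval of 0.960 to 5.77 that includes no difference.

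DUSP6, the cytoplasmic phosphatase specific for ERK, varied little. It had 53.0 CPM (23 counts) in the combined omission, 81.5 CPM (50 counts) in the tryptophan/niacin-free library, 57.8 and 57.5 CPM (32 and 39 counts) in the methionine-free libraries and 61.6 CPM (67 counts) on normal food, with all counting intervals overlapping. IER2, a small nuclear immediate early protein, ran from 64.5 CPM in the combined omission to 72.3 CPM in methionine-free replicate 1 across the omission libraries, against 49.6 CPM on normal food. IER3, a stress-inducible regulator of cell survival, ran from 41.6 to 70.7 CPM in the omission libraries, both ends of that range being methionine-free libraries, against 64.3 CPM on normal food. The intervals of IER2 and of IER3 overlapped in every pair of libraries. Their ratios of the highest to the lowest library were 1.46 for IER2, 1.70 for IER3 and 1.54 for DUSP6, against 3.91 for EGR1, 3.29 for JUN, 3.12 for FOSL1 and 3.06 for DUSP1.

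**Figure D2:**
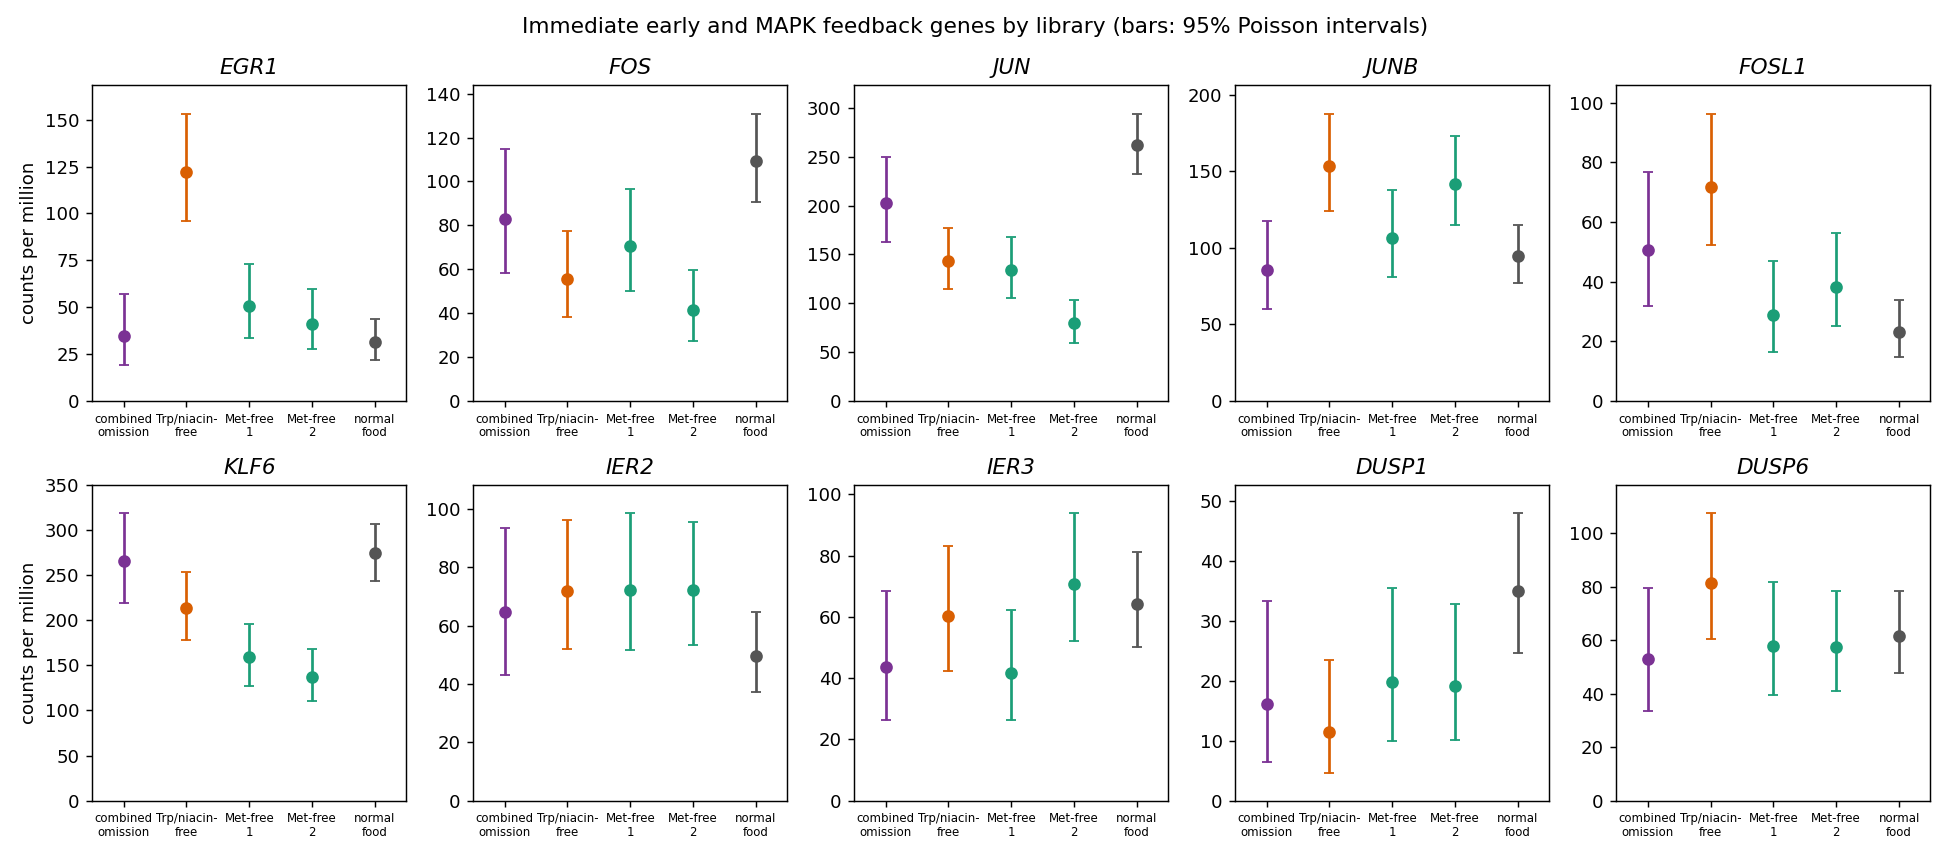
Level of each of the 10 genes in the 5 libraries, in CPM on a linear axis that starts at 0, with 95% exact Poisson intervals as bars that cover counting error only. EGR1 peaks at 122 CPM in the tryptophan/niacin-free library, while FOS, JUN, KLF6 and DUSP1 are highest on normal food.

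Tryptophan/niacin-free food was compared with normal food to ask what the loss of these nutrients changed. As each food had 1 library, a gene was set apart by size alone: a log2 difference of at least 1 with a 95% exact interval of the count ratio that excludes 1. By that rule EGR1 and FOSL1 were higher and DUSP1 was lower, 3 of the 10 members, against 3.52% of all genes (1.01% higher and 2.51% lower). Just outside it were FOS at −0.98 and JUN at −0.89, whose count intervals excluded 1. The prior count draws these values towards 0, so FOS missed the size although its count ratio was 2.03-fold. At 1.5-fold FOS, JUN and JUNB joined, which made 6 of the 10, against 876 of all 10005 genes. JUNB, at 0.64, and KLF6, at −0.39, also had count intervals that excluded 1. IER2 stood at 0.47, DUSP6 at 0.35 and IER3 at −0.13. So 5 members lay above and 5 below normal food, with a median of 0.11, against −0.01 over all genes.

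Between the combined omission and normal food only FOSL1, at 1.04, was beyond the size rule, 1 of the 10 members, against 2.02% of all genes (0.95% higher and 1.07% lower). DUSP1, at −0.99, was just under the size and its interval included no difference. EGR1 stood at 0.13, IER2 at 0.35, KLF6 at −0.05, JUNB at −0.15, DUSP6 at −0.21, JUN at −0.37, FOS at −0.39 and IER3 at −0.53. The median of the 10 was −0.18, against −0.01 over all genes.

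The combined omission was also set against tryptophan/niacin-free food, which asks what leaving out methionine changes when tryptophan and niacin are already missing. EGR1 was lower beyond the size rule, 1 of the 10 members, against 4.04% of all genes (2.3% higher and 1.74% lower). JUNB, at −0.79, was lower and JUN, at 0.52, higher with intervals that excluded 1, and the other 7 members had intervals that included 1, from −0.56 for DUSP6 to 0.59 for FOS. At 1.5-fold EGR1 and JUNB were beyond the rule, against 818 of all 10005 genes. The median over the members was −0.26, against 0.00 over all genes. For 8 of the 10 members, IER3 and DUSP6 being the others, leaving out methionine went in opposite directions with and without tryptophan and niacin in the food, as it did for 41.6% of all genes.

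Methionine-free food against normal food was the comparison with a replicate pair. The SEs rest on a spread pooled over genes, so they do not show how far the replicates of a single gene differ. JUN stood at a log2 fold change of −1.25 (SE 0.411), FOS at −0.93 (SE 0.403), KLF6 at −0.83 (SE 0.422) and DUSP1 at −0.77 (SE 0.535). EGR1 (0.61, SE 0.466), FOSL1 (0.63, SE 0.498), IER2 (0.61, SE 0.429) and JUNB (0.47, SE 0.419) lay above normal food in both libraries. IER3 (−0.11) and DUSP6 (−0.03) lay below normal food in replicate 1 and above it in replicate 2. By edgeR's quasi-likelihood test with Benjamini-Hochberg adjustment over all genes, 0 of the 10 members were called, against 0.23% of all genes. DESeq2 and limma-voom called 0 of the 10 as well, and over all genes 7.68% had an unadjusted p below 0.05 by edgeR. The 4 members FOS, JUN, KLF6 and DUSP1 were below normal food in both methionine-free libraries, as 35.1% of all genes were, and in all 4 omission libraries, as 16.6% of all genes were. EGR1, FOSL1 and IER2 were above normal food in all 4, 3 of the 10 members against 15.2% of all genes.

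The combined omission was compared with methionine-free food, and tryptophan/niacin-free food with methionine-free food, in the same fit. In the combined omission JUN stood at a log2 fold change of 0.88 (SE 0.436) and KLF6 at 0.77 (SE 0.438) above the methionine-free libraries, JUNB at −0.62 (SE 0.461) and EGR1 at −0.47 (SE 0.537). FOS stood at 0.52 and FOSL1 at 0.50, while IER3, DUSP1, IER2 and DUSP6 lay below 0, from −0.45 for IER3 to −0.19 for DUSP6. edgeR called 0 of the 10 members, against 0.03% of all genes (7.57% at an unadjusted p below 0.05). In tryptophan/niacin-free food EGR1 stood 1.31 (SE 0.420) and FOSL1 0.97 (SE 0.457) above the methionine-free libraries, and DUSP1 at −0.87 (SE 0.724). Here too edgeR called 0 of the 10 members, against 0% of all genes (4.91% at an unadjusted p below 0.05). DESeq2 and limma-voom called 0 of the 10 in either comparison. FOS in tryptophan/niacin-free against methionine-free food had a log2 CPM difference of −0.07 with TMM scaling and 0.03 with total counts, so its direction flips with the scaling.

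The methionine-free pair shows how far libraries of 1 food can differ. Replicate 2 stood 0.84 above replicate 1 in IER3, 0.52 in JUNB and 0.49 in FOSL1, at −0.62 in FOS and at −0.61 in JUN, and within 0.16 in the other 5 members. Between these replicates 0 of the 10 members and 6.58% of all genes (2.44% higher and 4.14% lower) were beyond the size rule. At 1.5-fold 2 of the 10 members, JUN and IER3, were beyond it, against 1563 of all 10005 genes. With the differences tied to transcript length taken out, the methionine-free mean against normal food was −1.23 for JUN, −1.07 for FOS, −0.70 for KLF6 and −0.88 for DUSP1, while JUNB had 0.21, FOSL1 0.29 and IER3 −0.50.

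**Figure D3:**
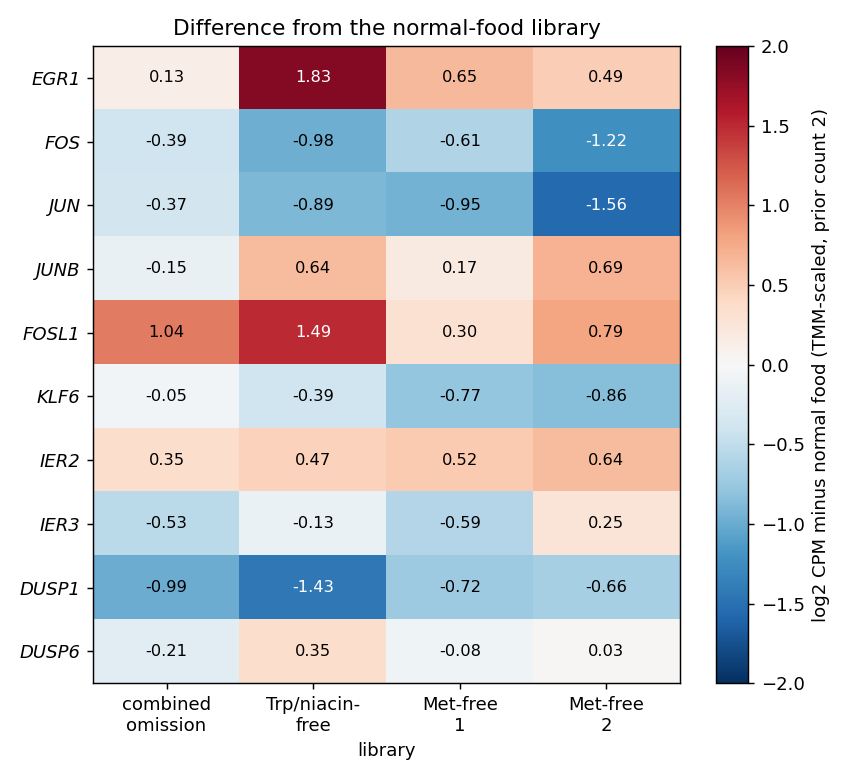
Difference of each omission library from the normal-food library, as log2 CPM (TMM scaling, prior count 2), with genes in rows, libraries in columns and the value printed in each cell. EGR1 reaches 1.83 in the tryptophan/niacin-free library, JUN −1.56 in methionine-free replicate 2, and FOSL1 is above 0 in all 4 columns.

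Ratios of 2 members within a library do not depend on how the libraries were scaled. EGR1 made up 29.4% of the EGR1 and FOS counts in the combined omission (exact Clopper-Pearson interval 17.5% to 43.8%), 68.8% in the tryptophan/niacin-free library (59.2% to 77.3%), 41.8% and 50% in the methionine-free libraries and 22.2% on normal food (15.9% to 29.6%). FOSL1 made up 37.9%, 56.4%, 29.1% and 48.2% of the FOSL1 and FOS counts in the combined omission, the tryptophan/niacin-free library and the methionine-free replicates 1 and 2, against 17.4% on normal food. JUNB made up 29.6% of the JUNB and JUN counts in the combined omission, 51.7% in the tryptophan/niacin-free library, 44.4% and 64.0% in the methionine-free libraries and 26.6% on normal food. For all 3 pairs normal food had the lowest share, and for the pairs of EGR1 with FOS and of JUNB with JUN the combined omission was next to it with an overlapping interval. The pairs were formed with the levels of the members known. On normal food FOS was highest and EGR1 and FOSL1 were lowest, so its lowest share in the pairs with FOS restates those levels. JUN was highest there too, while JUNB was lowest in the combined omission.

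**Figure D4:**
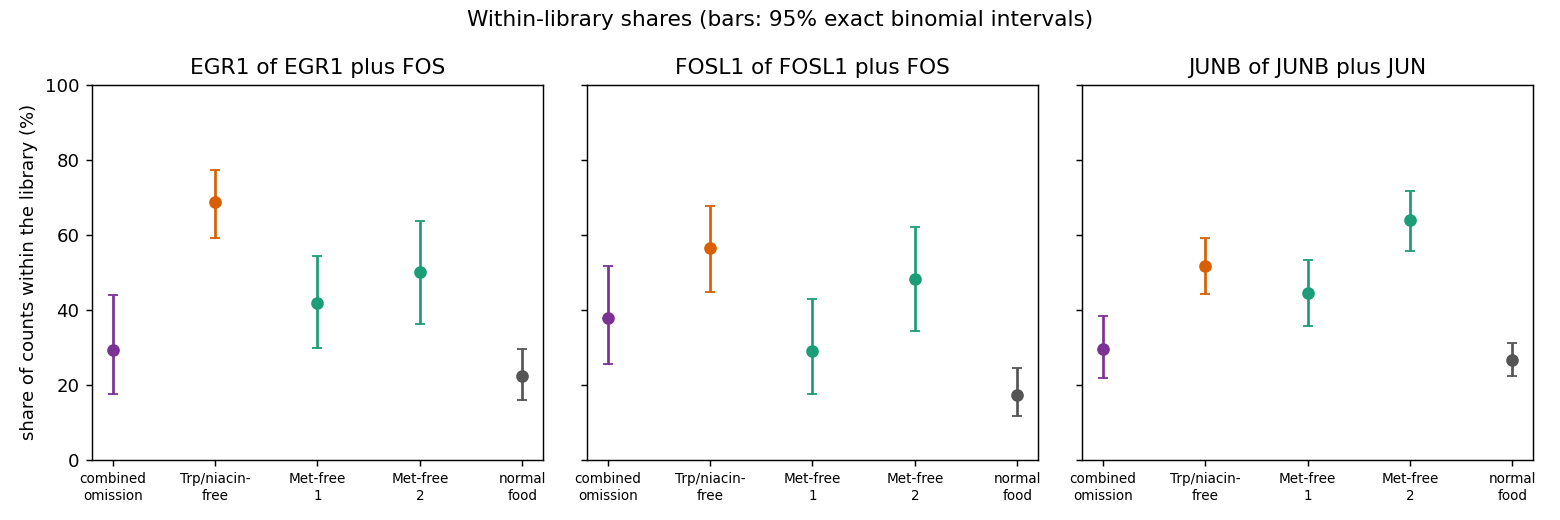
Share of counts within each library, in percent, for EGR1 of EGR1 plus FOS, FOSL1 of FOSL1 plus FOS and JUNB of JUNB plus JUN, with 95% exact binomial intervals as bars. Normal food has the lowest share in each panel, and EGR1 reaches 68.8% in the tryptophan/niacin-free library.

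AP-1 subunits were compared with each other as CPM per kilobase of their longest transcript. FOS was 44.7% of the FOS family level (FOS, FOSB, FOSL1 and FOSL2) in the combined omission, 29.4% in the tryptophan/niacin-free library, 51.0% and 38.9% in the methionine-free libraries and 57.0% on normal food. FOSL1 was the leading family member in the tryptophan/niacin-free library, with 49.2%, and in methionine-free replicate 2, with 46.7%, against 15.5% on normal food. In that replicate FOSL1 had 26 counts and FOS 28, so the lead of FOSL1 there rests on the division by length. Short transcripts also stood higher in that replicate, and the part of this in its FOS and JUN family shares was not tested. In the JUN family, JUNB was 28.7% of the summed level in the combined omission, 55.1% in the tryptophan/niacin-free library, 35.9% and 52.4% in the methionine-free libraries and 26.1% on normal food. JUND, the JUN family member least tied to growth stimulation, was 18.3% in the tryptophan/niacin-free library and 32.5% to 41.0% in the other 4.

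The 10 genes did not share 1 profile. The distance between mean-centred log2 profiles over the 5 libraries was smallest for FOS and JUN (0.41), then for JUNB and DUSP6 (0.52) and for JUN and KLF6 (0.54), and largest for EGR1 and DUSP1 (2.36). Summed over the members, the level was 899 CPM in the combined omission, 985 CPM in the tryptophan/niacin-free library, 741 and 699 CPM in the methionine-free libraries and 1005 CPM on normal food. The 5 genes with profiles nearest to EGR1 over the 5 libraries were MKS1 (distance 0.24), KIAA0586 (0.60), COTL1 (0.62), TAPT1 (0.64) and CXCL16 (0.64). MKS1 had 4 counts in the combined omission, 19 in the tryptophan/niacin-free library, 8 in each methionine-free library and 9 on normal food, so that its likeness rests on few counts. The mean profile of the 10 members was nearly flat, and nearest to it were SYNJ2BP (0.06), PDS5B (0.09), SF3B3 (0.10), LINC00869 (0.10) and ARF6 (0.11).

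Around the members, 145 genes in 9 lists were described, 8 of the same pathways and 1 of heat shock genes, of which 117 had enough counts. The 28 others included EGR2, EGR3 and NR4A2, and BRAF. In the 3 tested comparisons edgeR, DESeq2 and limma-voom called 0 of these 117, and by edgeR 11 had an unadjusted p below 0.05 in methionine-free against normal food (7.68% of all genes), 10 in the combined omission against methionine-free food (7.57% of all genes) and 4 in tryptophan/niacin-free against methionine-free food (4.91% of all genes). The smallest adjusted p of edgeR was 0.26, for ERRFI1 in methionine-free against normal food. By the size rule 1 was higher and 6 were lower in tryptophan/niacin-free against normal food, 5.98% against 3.52% of all genes. In the combined omission against normal food 2 were higher, 1.71% against 2.02% of all genes. In the combined omission against tryptophan/niacin-free food 3 were higher and 1 lower, 3.42% against 4.04% of all genes.

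Other immediate early genes (37, of which 29 had enough counts) had a median log2 difference of −0.18 in tryptophan/niacin-free against normal food. Beyond the size rule 5 were lower and 1 was higher, against 2.51% and 1.01% of all genes. JUND had 52.2 CPM in the tryptophan/niacin-free library and 136 CPM on normal food. ATF3, a stress-induced AP-1 partner, had 17.9 CPM in the tryptophan/niacin-free library and 49.6 CPM on normal food. PPP1R15A, which restarts translation after stress, was 2.15-fold lower there (interval 1.58 to 2.96), and CYR61, a secreted matrix protein, 2.38-fold (1.17 to 5.32). The orphan receptor NR4A1 had 5 counts in the tryptophan/niacin-free library and 24 on normal food, a 2.78-fold lower level with an interval of 1.04 to 9.34. The kinase SGK1 was the 1 gene higher, with 47.3 CPM in the tryptophan/niacin-free library and 21.1 CPM on normal food, and the repressor KLF10, at 0.90, did not reach the size. The combined omission was higher than normal food in IER5L, with 41.5 CPM in the combined omission and 17.5 CPM on normal food. JUND, KLF10 and the kinase PLK3 separated the combined omission from the tryptophan/niacin-free library. JUND had 111 CPM in the combined omission and 52.2 CPM in the tryptophan/niacin-free library, and PLK3 had 48.4 CPM in the combined omission and 16.3 CPM in the tryptophan/niacin-free library. KLF10 was lower, with 41.5 CPM in the combined omission and 97.8 CPM in the tryptophan/niacin-free library.

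Other feedback inhibitors of MAPK signalling (21, of which 17 had enough counts) had medians of −0.16 in tryptophan/niacin-free, 0.03 in the combined omission and −0.26 in methionine-free, each against normal food. ERRFI1, the inhibitor of the EGF receptor also called MIG6, had 334 CPM in the combined omission, 178 CPM in the tryptophan/niacin-free library, 168 and 152 CPM in the methionine-free libraries and 418 CPM on normal food, the same order of libraries as JUN. It was the 1 member of that list beyond the size rule in tryptophan/niacin-free against normal food, 2.42-fold lower (interval 1.96 to 3.01). The Sprouty genes SPRY3 (0.75) and SPRY4 (0.59) lay above normal food in that comparison and SPRY2 (−0.60) below. The ubiquitin ligase CBLB was higher in the combined omission, at 34.6 CPM, than in tryptophan/niacin-free food, at 13.0 CPM. In the combined omission against methionine-free food 14 of the 17 stood above 0, with a median of 0.67, against 5006 of 10005 and 0.00 over all genes. Between the methionine-free replicates themselves 14 of the 17 were lower in replicate 2, with a median of −0.31 and 2 beyond the size rule, and the part of that library in the difference was not tested. In that comparison of the foods edgeR, DESeq2 and limma-voom called 0 of them, with 2 at an unadjusted p below 0.05 by edgeR.

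Other ERK output genes, EGF family ligands, growth factor receptors and the RAS and ERK cascade were described as further lists. In tryptophan/niacin-free against normal food 0 of their genes were beyond the size rule, against 3.52% of all genes. Among other ERK output genes (13, of which 9 had enough counts) PHLDA1 stood at 0.94, the cyclin CCND1 at 0.66, HMGA2 at −0.44 and the urokinase receptor PLAUR at −0.69. EGF family ligands (8, of which 4 had enough counts) ran from −0.18 for AREG to 0.11 for EREG, with HBEGF at 0.01 and TGFA at −0.07. Among growth factor receptors (11, of which 9 had enough counts) EGFR stood at 0.87, FGFR2 at 0.42, ERBB3 at −0.27 and FGFR4 at −0.54. In the RAS and ERK cascade (19, of which 17 had enough counts) the ribosomal S6 kinase RPS6KA1 stood at 0.25, the adaptor SHC1 at −0.44 and the ERK-activated kinase MKNK2 at −0.76.

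In the same comparison stress MAP kinases (14, of which 11 had enough counts) ran from −0.31 for MAP3K5 and −0.25 for MAP3K1 to 0.67 for MAP3K7 and 0.90 for MAP2K4. Regulators that act on immediate early promoters (12, of which 11 had enough counts) ran from −0.34 for CREB1 and −0.31 for the coactivator CREBBP to 0.29 for EP300 and 0.87 for MKL1, the actin-controlled partner of serum response factor. All 10 heat shock genes had enough counts. In tryptophan/niacin-free against normal food HSPH1 stood at 0.84, HSPA8 at 0.47, HSPA1B at −0.01 and DNAJB1 at −0.05. The chaperone HSPH1 was beyond the size rule in the combined omission, with 330 CPM there and 153 CPM on normal food.

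**Figure D5:**
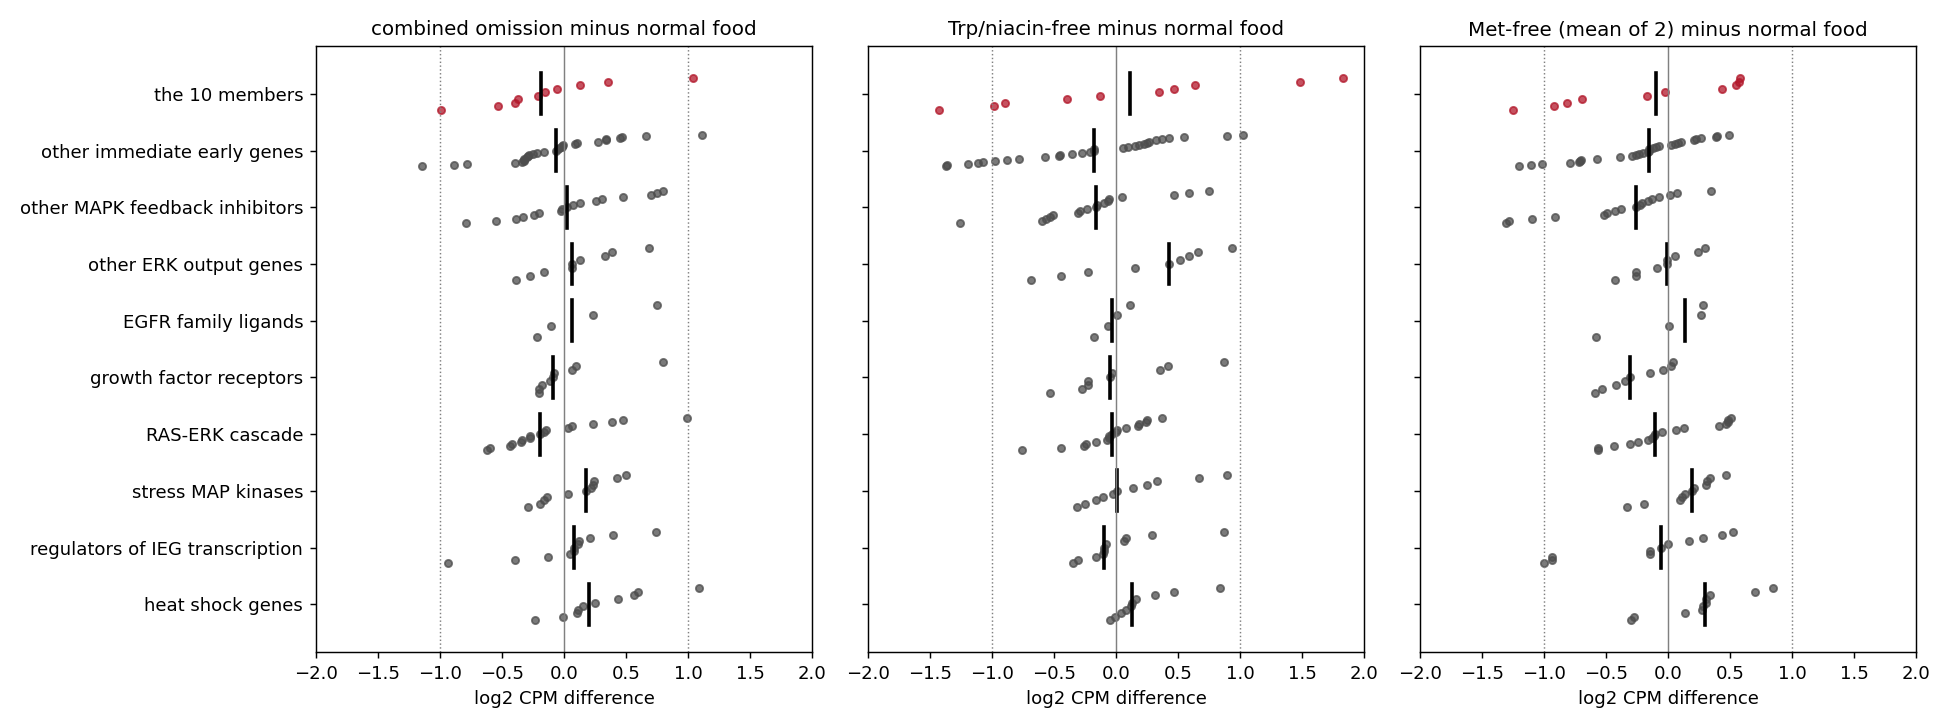
Log2 CPM differences of single genes by list, with the median of each list, for the comparisons of the omission foods with normal food. The medians lie between −0.31 and 0.43, and the 10 members spread from −1.43 for DUSP1 to 1.83 for EGR1 in tryptophan/niacin-free food.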

How the data were processed

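mRNA was sequenced in 5 libraries from HT-29 xenograft tumours on 4 diets, grouped by the treatment labels. Per gene symbol, the deposited values are expected counts, that is, estimates, of which 15.2% to 17.6% of the values above 0 carry decimals. The submitters' processing notes name featureCounts, Subread 2.0.0, SAMtools 0.1.18, Bowtie2 2.2.8, TopHat2 2.1.1 and the build hg19. The kit was stranded per the labels. Not given in the sources used here are the annotation, the strand setting and the handling of mouse or multiply placed reads, so overlapping and near-identical genes are uncertain and mouse reads could have been counted.

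Counts were rounded. filterByExpr kept 10005 of 26364 symbols. edgeR 4.0.16 (limma 3.58.1, R 4.3.3, quasi-likelihood F-test, TMM, p adjusted by Benjamini-Hochberg over every gene tested, threshold 0.05) was fitted to all 5 libraries with 1 mean per diet. Only the methionine-free pair leaves a residual degree of freedom, 1 in all (biological coefficient of variation 0.207), and the fit assumes that lone libraries vary like that pair. Its p-values therefore measure no more than how these samples spread, possibly for technical reasons. The prior degrees of freedom were infinite, so p-values and SEs draw on a spread pooled over genes and not on that of each gene. An SE is the size of the log2 fold change divided by the square root of F. Lone libraries were compared by the size rule, without a test. Intervals and floors cover counting error only. Transcript lengths are those of the longest GENCODE transcript. The edgeR fit was tested on simulated counts, for methionine-free against normal food.

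The members and lists were chosen with earlier results of these data known. Beside all 10 members, the text names listed genes that were called or beyond the size rule, and up to 2 per list with the highest and 2 with the lowest tryptophan/niacin-free minus normal difference. A gene that this rule would name is not reported here. For likeness it names the 5 genes with the smallest Euclidean distance. Other scalings, filters, tools (DESeq2 1.42.0, limma-voom), prior counts, folds, a length correction and left-out libraries were tried.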

Additional observations from a re-analysis of the deposited data

Results flagged for a closer look

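For 8 of the 10 members the effect of leaving out methionine had opposite directions with and without tryptophan and niacin in the food: both methionine-free libraries lay on one side of normal food, and the combined omission lay on the other side of the tryptophan/niacin-free library. The same held for 41.6% of all genes. This difference between the effects was not tested, and only the signs were used to pick these members. For FOS, FOSL1, KLF6, IER2 and DUSP1 the count interval of the combined omission against tryptophan/niacin-free food included no difference. The effect without tryptophan and niacin minus the effect with them was −2.28 for EGR1, −1.22 for JUNB, −0.99 for FOSL1 and −0.69 for IER2 on the log2 scale. It was 1.78 for JUN, 1.5 for FOS, 1.15 for KLF6 and 1.13 for DUSP1. The combined omission and normal food share a title style that the other libraries do not have. What the style marks is not stated, and if it marks handling, this contrast cannot be told apart from it.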

How the results depend on the processing

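Across all alternatives 0 of the 10 members were called in the tested comparisons. Genes called in methionine-free against normal food numbered 23, 3 with the length correction, 1 by DESeq2, and 20 to 23 with a library left out. In the combined omission against methionine-free food they numbered 3, 6 with total-count scaling, 0 with the length correction, 0 by DESeq2, 9 by limma-voom, and 2 to 3 with a library left out. For tryptophan/niacin-free against methionine-free food they were 0 throughout (unadjusted p below 0.05 in 491 by edgeR, 31 by DESeq2 and 474 by limma-voom). With a library left out they were 0 as well. At 1.5-fold the size rule took 876 genes in place of 352 in tryptophan/niacin-free against normal food, 527 in place of 202 in the combined omission against normal food, 818 in place of 404 in the combined omission against tryptophan/niacin-free food, and 1563 in place of 658 between the methionine-free replicates. Total-count scaling moved that last split to 140 higher and 575 lower, from 244 and 414. The cause of these moves was not tested. With a prior count of 0.5, FOS joined the size rule in tryptophan/niacin-free food, at −1.01. Without methionine-free replicate 1, 5 of the 30 member differences that involve methionine-free food changed sign. These were IER3 (0.25) and DUSP6 (0.03) in methionine-free against normal food. The others were FOS (0.24), JUNB (−0.05) and IER3 (−0.38) in tryptophan/niacin-free against methionine-free food. Without replicate 2, 1 of the 30 did, IER3 (0.06) in the combined omission against methionine-free food. No paired analysis was possible because only the methionine-free food has more than 1 library.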
